A study of Mus musculus with 9 samples.

Results

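The genes described here are the glutathione, thioredoxin and other antioxidant genes of mouse muscle cells, followed as cycling myoblasts became myotubes. They were chosen by symbol from probe sets that name exactly 1 gene: the numbered Gpx, Prdx and Sod genes, all genes whose symbol starts with Txn, the numbered Gst genes of the a, k, m, o, p, t and z classes, and Cat, Gclc, Gclm, Gss, Gsr, Nqo1, Hmox1, Hmox2, Nfe2l2, Keap1, Srxn1, Mt1 and Mt2. This gave 71 of 35556 probe sets and, with the probe set of highest mean for each gene, 66 of 19938 genes. Of the 66, 62 passed a filter on low values and were tested, and Gpx5, Gpx6, Gstm6 and Txndc8 did not pass it at any time point. Prdx5, Prdx6, Gstp2, Gsta1 and Gsta2 had no probe set of their own and were not analysed here, and Prdx6-ps2, which is included, is a pseudogene entry.

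Gene expression was measured on 9 Affymetrix arrays in primary myoblasts, the dividing precursors of skeletal muscle, and in myotubes, the multinucleate cells they form by fusion. The mice were Balb/c and wild type, and skeletal muscle was the tissue of origin. The 3 groups of 3 arrays were cycling myoblasts at day 0, myotubes after 2 days and myotubes after 5 days in differentiating medium. That medium is named in the titles alone, whereas the growth protocol of every sample lists the same serum and bFGF medium.

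Superoxide dismutases turn superoxide into hydrogen peroxide, which catalase, glutathione peroxidases and peroxiredoxins then reduce. Glutathione peroxidases draw on glutathione, which is made by glutamate-cysteine ligase and glutathione synthetase and is reduced again by glutathione reductase, and most peroxiredoxins draw on thioredoxin, which thioredoxin reductase recycles with NADPH. NRF2, encoded by Nfe2l2 and held in check by KEAP1, activates many of these genes through antioxidant response elements, and metallothioneins are induced by zinc through metal response elements. Contracting muscle consumes much oxygen, and its mitochondria are a known source of superoxide.

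Stretches of 6 promoters are printed here because genes of both directions of change carry such a motif. The sequences are from RefSeq, build GRCm38.p6, 5′ to 3′ on the strand of the gene, and 57 of the 66 members had a window of 250 bases upstream of the start site. The core of the antioxidant response element, TGACNNNGC on either strand, was found in 12 of these 57 genes (21.1%), against 11.5% of all 27025 genes and 10.2% of all 32851 windows. Of the members with a window, 15 changed at least 2-fold in a comparison, and the capitals mark the core in the 5 of these that carry it. The stretches are chr3:122245377-122245476 for Gclm on the plus strand, chr3:107931690-107931789 for Gstm7 on the minus strand, chr8:94172493-94172592 for Mt2 on the plus strand, chr13:38527999-38528098 for Txndc5 on the minus strand and chr10:82859068-82859167 for Txnrd1 on the plus strand.
Gclm: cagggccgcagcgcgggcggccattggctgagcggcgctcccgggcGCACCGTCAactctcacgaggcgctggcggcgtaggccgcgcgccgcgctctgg
Gstm7: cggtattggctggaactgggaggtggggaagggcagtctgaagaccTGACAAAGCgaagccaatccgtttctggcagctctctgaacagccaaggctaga
Mt2: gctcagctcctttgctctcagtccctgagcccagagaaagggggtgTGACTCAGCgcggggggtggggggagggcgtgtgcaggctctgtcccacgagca
Txndc5: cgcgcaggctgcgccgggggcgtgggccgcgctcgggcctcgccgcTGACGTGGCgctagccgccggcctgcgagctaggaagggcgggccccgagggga
Txnrd1: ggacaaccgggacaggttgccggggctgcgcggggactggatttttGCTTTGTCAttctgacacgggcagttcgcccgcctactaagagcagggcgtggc
Gclm, Txndc5 and Txnrd1 were lower in myotubes, whereas Gstm7 and Mt2 were higher. Gclc, Gsta4, Hmox1 and Sod3, which also changed, had no sequence here, and whether these letters go with a direction was not tested.

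The core of the metal response element, TGCACNC or TGCGCNC on either strand, was found in 15 of the 57 members (26.3%), against 23.8% of all genes and 21.4% of all windows. The full windows of the neighbouring metallothionein genes are printed with this core in capitals, chr8:94178839-94179088 for Mt1 and chr8:94172368-94172617 for Mt2, both on the plus strand. The Mt1 window held 1 match, and the Mt2 window held 3, starting at -223, -128 and -50. Bases outside these windows, also those downstream of the annotated start, were not searched, so these are not counts for the whole promoters.
Mt1: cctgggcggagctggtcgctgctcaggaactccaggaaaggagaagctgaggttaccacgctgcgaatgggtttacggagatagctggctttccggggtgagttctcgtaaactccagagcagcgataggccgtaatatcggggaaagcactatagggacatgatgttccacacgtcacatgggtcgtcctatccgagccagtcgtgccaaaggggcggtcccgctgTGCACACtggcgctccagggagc
Mt2: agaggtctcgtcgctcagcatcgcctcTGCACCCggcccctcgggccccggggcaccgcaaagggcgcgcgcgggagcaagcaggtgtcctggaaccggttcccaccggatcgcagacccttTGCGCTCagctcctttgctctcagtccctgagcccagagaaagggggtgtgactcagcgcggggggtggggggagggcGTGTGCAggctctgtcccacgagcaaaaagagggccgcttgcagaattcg
In Gclm a metal response match from -138 to -132 overlapped the antioxidant response match from -134 to -126. A match describes the letters only and no binding was measured.

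The values are log2 RMA values that the authors normalized within each time point, so the normalization set and the time point cannot be told apart. Each log2 fold change (log2FC) is therefore quoted from the deposited values first and from a common scale second, for which all 9 arrays were quantile-normalized together. A gene is said to have risen or fallen only if it changed at least 2-fold with an adjusted p under 0.05 on both scales, with limma's test and Benjamini-Hochberg adjustment over 16582 genes. The p given is the larger of both scales. The choice of scale shifted the median log2FC of all genes tested at day 5 against cycling myoblasts from -0.37 as deposited to 0.17, and at day 2 from -0.01 to 0.09. Identical values on all 3 arrays of a group (within 1e-06) were found for 28 of the 62 tested members in cycling myoblasts, for 36 at day 2 and for 38 at day 5, and the largest SD of a member was 0.182. SDs and p-values are therefore too small, and as no label says that the 3 replicates came from separate cultures, they measure only the spread between these arrays. For the same reason, groups of arrays that did not overlap say little by themselves.

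Most markers of cell state moved with the labels. Mki67 and Top2a, markers of dividing cells, fell from 8.74 to 3.26 at day 2 and from 9.60 to 3.44, and Ckm, the muscle creatine kinase, rose from 6.19 to 11.01. Of the other cycling myoblast markers, Pax7 and Myf5 fell at both times and Myod1 missed 2-fold at day 2 (-0.96 and -0.93). Des rose instead (1.27 and 1.48 at day 2, 1.13 and 1.69 at day 5). All myotube markers rose at day 2, but Myog did not pass at day 5 (0.51 and 1.25). The summed level of 6 fibroblast markers was 9.18 to 9.21 on the log2 scale in cycling myoblasts, 7.28 at day 2 and 6.85 to 6.87 at day 5, with 3, 3 and 2 of the 6 at or below the array median and Dcn and Lum at or below the filter value at each time. The summed levels of endothelial (5.94 to 6.01), macrophage (5.65 to 6.21) and adipocyte (5.73 to 6.0) markers were low, with 4 or 5 of the 5 measured markers of each list at or below the array median. Itgam, a macrophage marker, rose at day 2 from 2.73 to 4.69 (log2FC 1.96 and 1.86), above the array median of 4.26, while Ptprc, Csf1r, Adgre1 and Cd68 lay at or below that median. That summed level follows Col3a1, a collagen gene, which fell from 8.92 to 6.06 and 4.77; of the other 3 tested fibroblast markers, Pdgfra, Col1a1 and Thy1, none passed. Division markers and Col3a1 moved with the falls described below, and their part in them was not tested. In these bulk samples fewer cells of a type and less RNA per cell cannot be told apart.

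At day 2 against cycling myoblasts, 3 of the 62 tested members rose (4.84%), against 6.04% of all genes tested, and 10 fell (16.1%), against 8.41%. At day 5 against cycling myoblasts 6 rose (9.68%, against 4.44% of all genes) and 9 fell (14.5%, against 12.3%). From day 2 to day 5, 3 rose (4.84%, against 0.766%) and 1 fell (1.61%, against 3.67%). The 3 comparisons share arrays, so their counts are not independent. The share of all genes that changed in at least 1 comparison was not computed. Of the members, 19 changed in at least 1. Those that fell include both subunits of glutamate-cysteine ligase (Gclc and Gclm), Nqo1, Hmox1, Txnrd1 and, from the endoplasmic reticulum, Prdx4, Gpx8 and Txndc5. Those that rose were the mitochondrial and extracellular superoxide dismutases (Sod2 and Sod3), the secreted glutathione peroxidase Gpx3, both metallothioneins, Gstm2, Gstm7 and Txnip.

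The balance of rises and falls depended on the scale. With the deposited values alone, 3 members rose and 13 fell at day 2 (6.39% and 12% of all genes), 6 and 20 at day 5 (4.44% and 29.2%), and 3 and 8 from day 2 to day 5 (0.766% and 15.4%). With the common scale alone, 6 rose and 10 fell at day 2 (7.73% and 8.45%), 13 and 9 at day 5 (11.8% and 12.3%), and 7 and 1 from day 2 to day 5 (2.78% and 3.67%). The median log2FC of the members was -0.27 at day 2 and -0.54 at day 5 from the deposited values, beside -0.01 and -0.37 for all genes tested. From the common scale it was -0.01 and 0.18, beside 0.09 and 0.17.

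**Figure D1:**
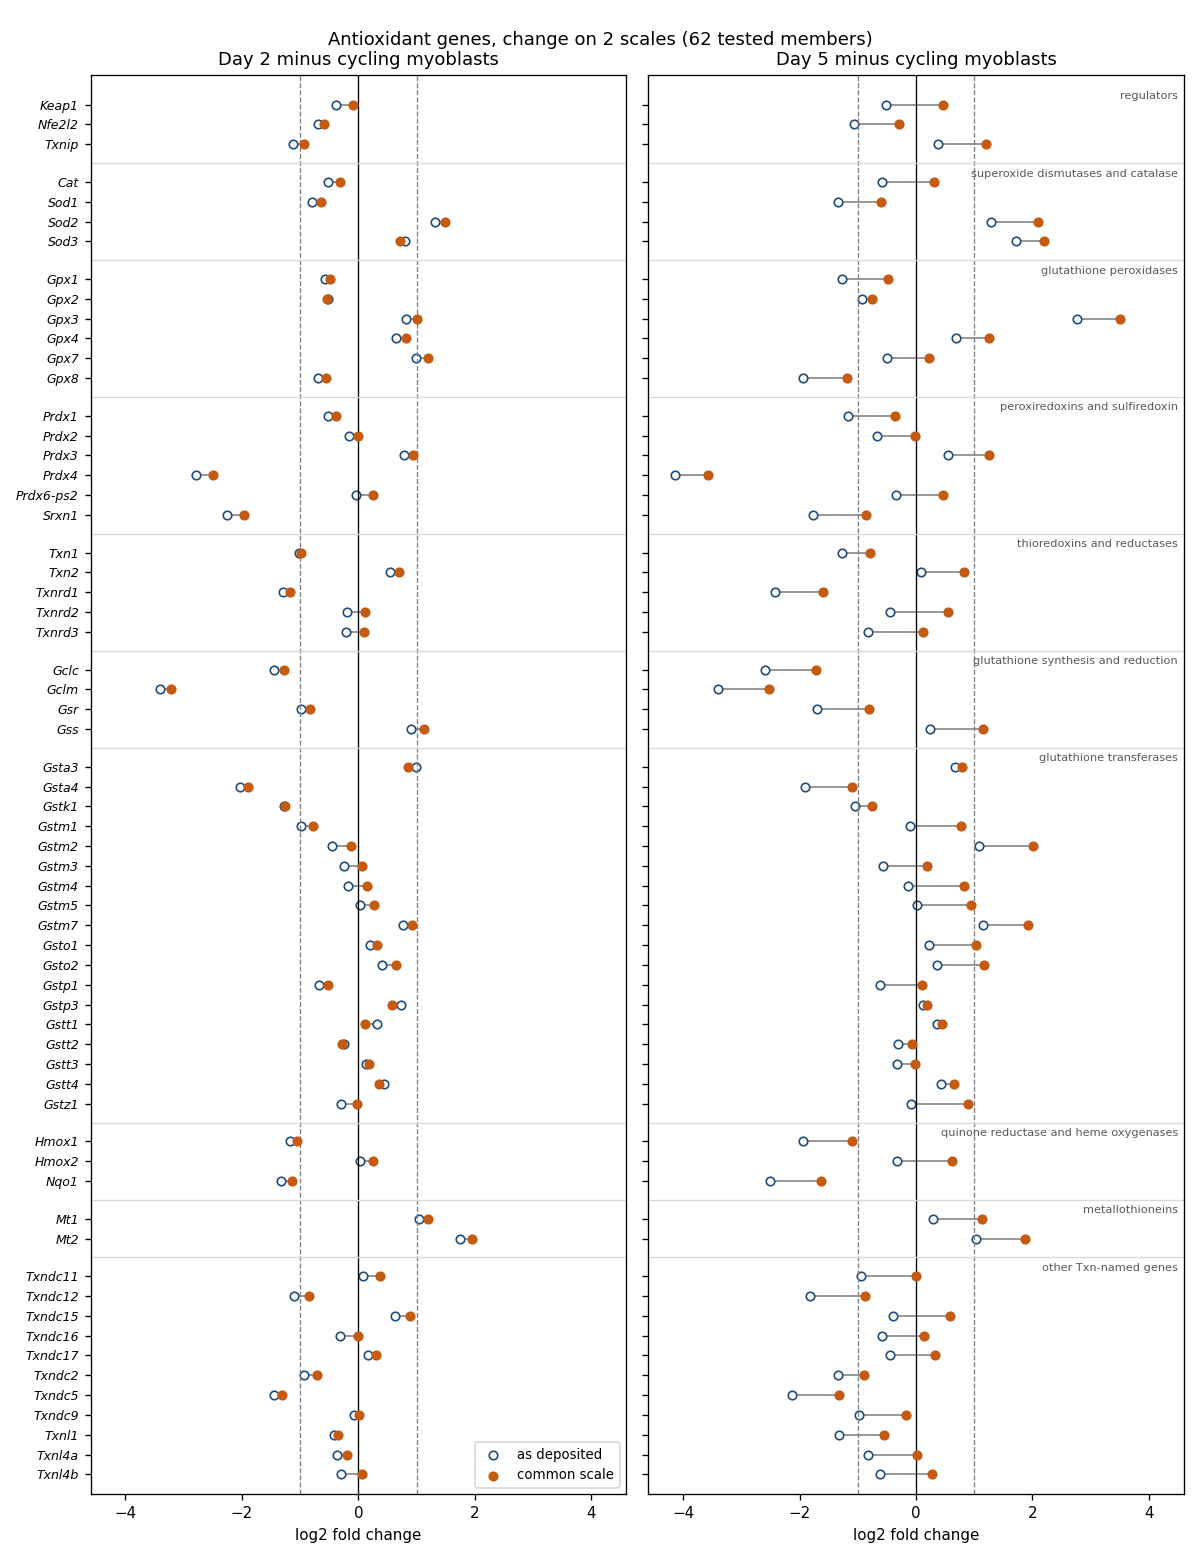
Log2 fold change of each of the 62 tested members at day 2 (left) and day 5 (right) against cycling myoblasts, grouped by role, with open circles for values as deposited and filled circles for the common scale; dashed lines mark a 2-fold change. At day 5 the filled circles lie to the right of the open ones throughout, and there Prdx4 (-4.15 and -3.58) lies farthest below 0 and Gpx3 (2.77 and 3.51) farthest above it on both scales.

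Of the 3 regulators 1, Txnip, rose in a comparison, and the others stayed under 2-fold on at least 1 scale. Nfe2l2, the transcription factor NRF2, measured 8.96, 8.99 and 8.99 in cycling myoblasts, 8.29 on each array at day 2 and 7.91 on each array at day 5. Its groups did not overlap, but its changes of -0.69 and -0.59 at day 2 and of -1.07 and -0.28 at day 5 did not reach 2-fold on both scales. Keap1, the adaptor that marks NRF2 for degradation, measured 7.11 on each cycling array, 6.74, 6.74 and 6.70 at day 2 and 6.59 on each array at day 5. Its direction at day 5 depended on the scale, with -0.52 as deposited and 0.47 on the common scale. Txnip, which binds and inhibits thioredoxin and restrains glucose uptake, measured 8.20 on each cycling array, 7.07 on each array at day 2 and 8.60, 8.54 and 8.59 at day 5. It was low at day 2 alone: from day 2 to day 5 it rose 2.84-fold as deposited and 4.39-fold on the common scale (adjusted p = 2.76e-11), while its day 2 change (-1.13 and -0.94) missed 2-fold on the common scale.

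Both subunits of the enzyme of the rate-limiting step of glutathione synthesis fell. Gclm, the modifier subunit of glutamate-cysteine ligase, measured 9.52, 9.67 and 9.64 in cycling myoblasts, 6.20 on each array at day 2 and 6.21 on each array at day 5. In these deposited values all of the myotube arrays lay more than 3 log2 units below every cycling array. It fell 10.6-fold as deposited and 9.27-fold on the common scale at day 2 (log2FC -3.41, SE 0.0368, and -3.21, SE 0.0164, adjusted p = 8.96e-11), and 10.5-fold and 5.74-fold at day 5. Gclc, the catalytic subunit, measured 8.38 on each cycling array, 6.94, 6.94 and 6.92 at day 2 and 5.79 on each array at day 5. Its groups did not overlap, and against cycling myoblasts it fell 2.74-fold and 2.43-fold at day 2 and 6.04-fold and 3.30-fold at day 5. The fall of Gclm thus exceeded that of Gclc by 1.95 log2 units at day 2 as deposited and by 0.80 at day 5. Gss, glutathione synthetase, which adds the last residue, went the other way: its mean of 7.30 in cycling myoblasts was 8.21 at day 2 and 7.54 at day 5. Its changes at day 2 were 0.91 as deposited and 1.13 on the common scale, which missed 2-fold on the deposited scale. Gsr, glutathione reductase, measured 8.25, 8.32 and 8.31 in cycling myoblasts, 7.31 on each array at day 2 and 6.54, 6.65 and 6.59 at day 5. Its groups did not overlap as deposited, but on the common scale day 2 (7.13 to 7.14) and day 5 (7.12 to 7.20) did. Its changes of -0.99 and -0.83 at day 2 missed 2-fold on both scales, and those at day 5 were -1.70 and -0.81.

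Of the quinone reductase and the heme oxygenases, Nqo1 and Hmox1, both known NRF2 targets, fell and Hmox2 did not pass. Nqo1, the quinone reductase, measured 7.99, 8.27 and 8.33 in cycling myoblasts, 6.84, 6.84 and 6.90 at day 2 and 5.68, 5.68 and 5.72 at day 5. It had the largest SD of any member in cycling myoblasts, 0.182, and still fell 2.52-fold and 2.21-fold at day 2 (adjusted p = 4.12e-06) and 5.68-fold and 3.09-fold at day 5. Hmox1, the inducible heme oxygenase, measured 8.63, 8.82 and 8.88 in cycling myoblasts, 7.59 on each array at day 2 and 6.79, 6.81 and 6.93 at day 5. It fell 2.27-fold and 2.08-fold at day 2, and 3.82-fold and 2.14-fold at day 5 (adjusted p = 1.62e-07). Hmox2, the constitutive form, stayed within 2-fold, with 0.03 and 0.26 at day 2 and -0.32 and 0.62 at day 5. The change of Hmox2 thus lay 1.21 log2 units above that of Hmox1 at day 2 as deposited and 1.31 above it on the common scale.

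**Figure D2:**
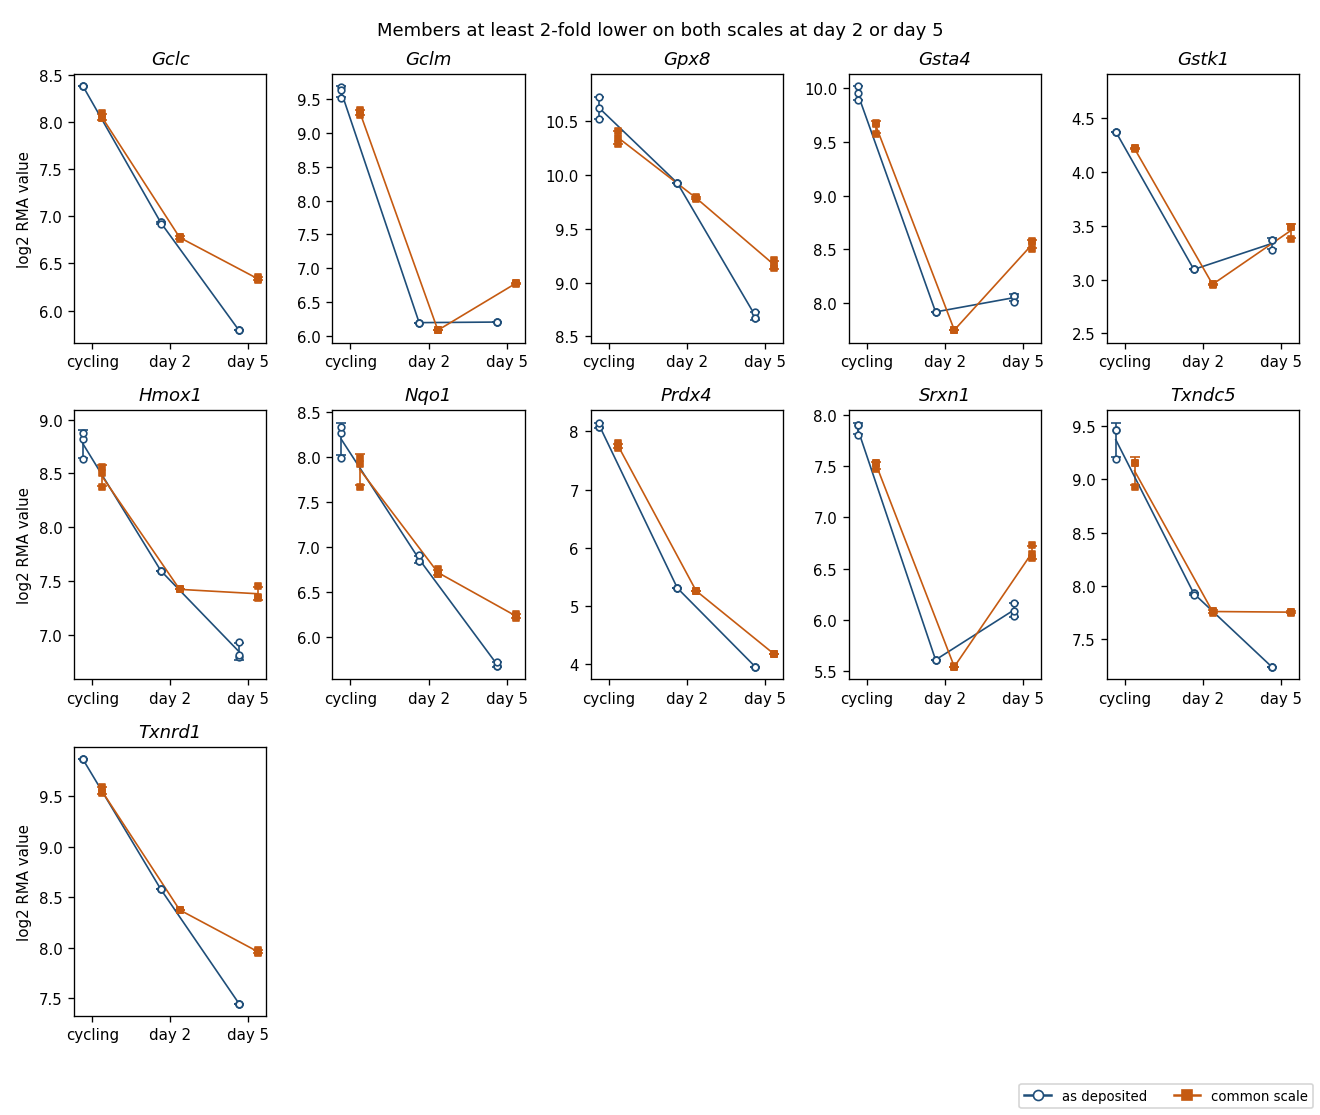
Log2 RMA values of the 11 members that fell at day 2 or day 5, 3 arrays a time point, as deposited (open circles, blue) and on the common scale (squares, orange); lines join the means, bars are SDs over 3 arrays, and each panel has its own axis. Prdx4 is the only one that fell again from day 2 to day 5. On both scales Gclc, Gpx8, Hmox1, Nqo1, Txndc5 and Txnrd1 also lie lower at day 5 than at day 2. On the common scale these differ by less than 2-fold, Hmox1 by -0.04 and Txndc5 by -0.01.

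Of the 5 thioredoxins and thioredoxin reductases, the cytosolic reductase fell at both times and no other passed. Txnrd1, the cytosolic thioredoxin reductase, measured 9.87 on each cycling array, 8.58 on each array at day 2 and 7.45 on each array at day 5. It fell 2.45-fold and 2.27-fold at day 2 (adjusted p = 1.31e-10) and 5.35-fold and 3.02-fold at day 5. Txn1, cytosolic thioredoxin, measured 11.59, 11.81 and 11.83 in cycling myoblasts, 10.77, 10.77 and 10.65 at day 2 and 10.45, 10.48 and 10.48 at day 5. All myotube arrays lay below all cycling ones, but its day 2 changes of -1.01 and -0.99 fell at the 2-fold threshold itself. Without cycling replicate 1, day 2 replicate 1 or day 2 replicate 2 it passed on both scales, with -1.09 and -1.07 in the first case. Txn2, mitochondrial thioredoxin, changed by 0.54 and 0.70 at day 2, and Txnrd2, the mitochondrial reductase, by -0.20 and 0.11. Txnrd3, which has a glutaredoxin domain as well, went from 6.28 to 6.07 and 5.45 as deposited, and its day 5 sign depended on the scale (-0.82 and 0.12).

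The peroxiredoxins, which reduce hydrogen peroxide with a reactive cysteine, did not move together, and among them only Prdx4 fell. Prdx4, the form of the endoplasmic reticulum, measured 8.07, 8.07 and 8.15 in cycling myoblasts, 5.31 on each array at day 2 and 3.95 on each array at day 5. The day 5 value lay below the array median. It fell 6.93-fold and 5.63-fold at day 2 (adjusted p = 7.29e-12), and 17.7-fold and 12.0-fold at day 5, and was the only member to fall from day 2 to day 5 as well, by 1.35 and 1.09 on the log2 scale. Prdx3, the mitochondrial form, measured 9.49, 9.51 and 9.51 in cycling myoblasts, 10.29 on each array at day 2 and 10.06 on each array at day 5. Both myotube groups lay above the cycling one, with changes of 0.78 and 0.94 at day 2 and 0.56 and 1.25 at day 5 that did not reach 2-fold on both scales. Prdx1, mainly cytosolic, measured 9.90, 9.93 and 10.03 in cycling myoblasts, 9.38, 9.39 and 9.52 at day 2 and 8.79 on each array at day 5. Its changes were -0.52 and -0.39 at day 2 and -1.16 and -0.37 at day 5, and its second probe set gave -0.82 and -0.71 at day 2. Prdx2 changed by -0.17 and -0.00 at day 2, and its second probe set by 0.12 and 0.36, so its direction is uncertain. Srxn1, sulfiredoxin, which restores over-oxidised peroxiredoxins, measured 7.80, 7.90 and 7.91 in cycling myoblasts, 5.61 on each array at day 2 and 6.03, 6.08 and 6.17 at day 5. It fell 4.78-fold and 3.91-fold at day 2 (adjusted p = 2.04e-09) and was higher on each day 5 array than at day 2. Its day 5 change was -1.77 from the deposited values and -0.85 on the common scale, of which the second missed 2-fold, while median centring gave -1.42.

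**Figure D3:**
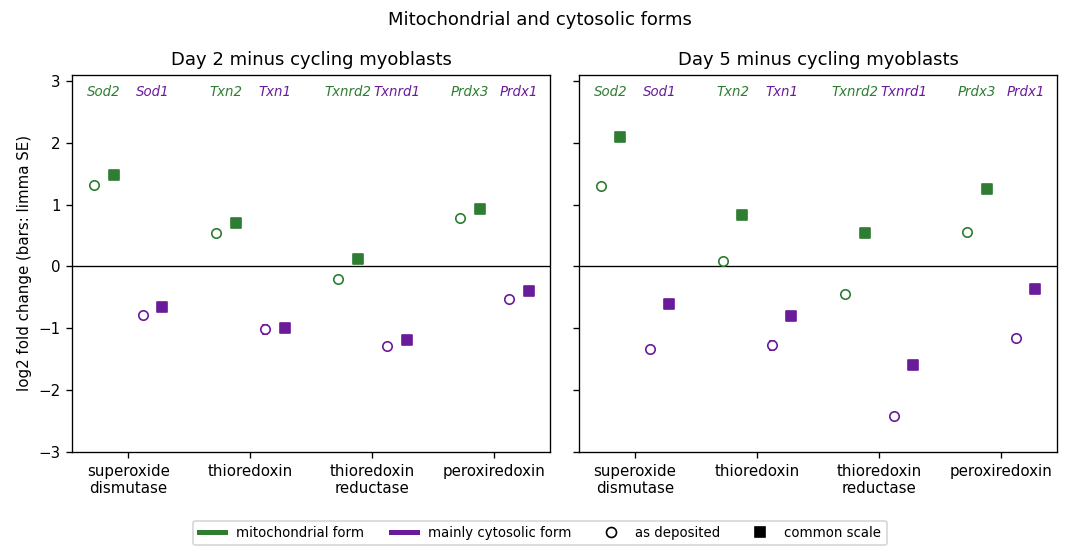
Log2 fold change of the mitochondrial (green) and mainly cytosolic (purple) forms of 4 enzymes at day 2 (left) and day 5 (right) against cycling myoblasts, as deposited (open circles) and on the common scale (squares); limma's SE is smaller than most symbols. In each of the 4 pairs, on both scales and at both times, the mitochondrial form lies above the cytosolic form.

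The same contrast held for the superoxide dismutases. Sod2, the manganese enzyme of mitochondria, measured 8.11 on each cycling array, 9.43, 9.42 and 9.42 at day 2 and 9.40 on each array at day 5. It rose 2.5-fold and 2.79-fold at day 2 (adjusted p = 1.70e-12) and 2.45-fold and 4.29-fold at day 5. Sod1, the copper and zinc enzyme of the cytosol, measured 10.86 on each cycling array, 10.11, 10.10 and 9.998 at day 2 and 9.62, 9.54 and 9.43 at day 5. It was low in all myotube arrays, with changes of -0.79 and -0.65 at day 2 and of -1.33 and -0.60 at day 5 that did not reach 2-fold on both scales. The change of Sod2 lay 2.11 log2 units above that of Sod1 at day 2 as deposited and 2.13 above it on the common scale, and 2.63 and 2.71 above it at day 5. For the other pairs the mitochondrial change lay above the cytosolic one at day 2 by 1.56 and 1.69 for thioredoxin, 1.09 and 1.30 for thioredoxin reductase and 1.30 and 1.33 for peroxiredoxin (Prdx3 and Prdx1). These pairs were set side by side after their values were seen, and the differences were not tested.

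Sod3, the extracellular dismutase, measured 3.30 on each cycling array, 4.11 on each array at day 2 and 5.01, 5.01 and 5.03 at day 5. The cycling and day 2 values lay below the array median, so the size of its rise at day 5, 3.30-fold as deposited and 4.56-fold on the common scale (adjusted p = 1.36e-14), is less certain than for brighter genes. Cat, the catalase of peroxisomes, measured 7.66, 7.76 and 7.64 in cycling myoblasts, 7.16 on each array at day 2 and 7.10 on each array at day 5. The deposited values put its day 5 change at -0.59 and the common scale at 0.32, so its direction there was not settled.

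Of the 6 tested glutathione peroxidases, the secreted form rose at day 5 and Gpx8 fell. Gpx3, the plasma glutathione peroxidase, measured 7.49, 7.72 and 7.72 in cycling myoblasts, 8.48, 8.43 and 8.48 at day 2 and 10.41, 10.34 and 10.48 at day 5. Each group lay above the one before it. It rose 6.81-fold and 11.4-fold at day 5 against cycling myoblasts (log2FC 2.77, SE 0.0698, and 3.51, SE 0.0581, adjusted p = 1.33e-08) and 3.85-fold and 5.65-fold from day 2 to day 5. Gpx4, which reduces lipid peroxides in membranes, measured 10.47, 10.48 and 10.56 in cycling myoblasts, 11.15, 11.16 and 11.15 at day 2 and 11.28, 11.17 and 11.13 at day 5. It was high in all myotube arrays, by 0.65 and 0.83 at day 2 and 0.69 and 1.25 at day 5, below 2-fold as deposited, and its second probe set gave 0.60 and 0.80 at day 2. Gpx1, the most widespread form, measured 9.52, 9.58 and 9.58 in cycling myoblasts, 8.97, 8.99 and 8.99 at day 2 and 8.29 on each array at day 5. Its changes of -0.58 and -0.48 at day 2 were opposite in sign to those of Gpx4, and at day 5 they were -1.28 and -0.48. Gpx8, a membrane enzyme of the endoplasmic reticulum, measured 10.52, 10.62 and 10.73 in cycling myoblasts, 9.93 on each array at day 2 and 8.67, 8.73 and 8.67 at day 5. It fell 3.82-fold and 2.27-fold at day 5 (adjusted p = 1.69e-08). Gpx7, also of the endoplasmic reticulum, was instead highest at day 2, with means of 5.12, 6.10 and 4.62, but its changes of 0.98 and 1.198 missed 2-fold as deposited. Without day 2 replicate 2 it passed, with 1.03 and 1.23. Gpx2, known from the gut, measured 3.82, 4.11 and 4.11 in cycling myoblasts, 3.59, 3.55 and 3.36 at day 2 and 3.08 on each array at day 5, near the filter values of 3.1 to 3.35.

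The metallothioneins, small cysteine-rich proteins that bind zinc and copper, both rose at day 2, where their deposited values were highest. Mt2 measured 7.69, 7.72 and 7.84 in cycling myoblasts, 9.46, 9.46 and 9.57 at day 2 and 8.76, 8.79 and 8.80 at day 5. It rose 3.36-fold and 3.85-fold at day 2 (adjusted p = 2.31e-08), and 2.04-fold and 3.68-fold at day 5. The day 5 call rests on cycling replicate 1, without which the deposited log2FC was 0.998. Mt1, its neighbour on chromosome 8, measured 7.92, 7.99 and 7.99 in cycling myoblasts, 9.00, 9.00 and 9.03 at day 2 and 8.22, 8.22 and 8.32 at day 5. It rose 2.06-fold and 2.29-fold at day 2 (adjusted p = 7.44e-08), and its day 5 changes were 0.28 and 1.13. Mt2 thus moved 0.70 log2 units further than Mt1 at day 2 and 0.74 further at day 5 as deposited. The drop from day 2 to day 5 appeared as deposited (-0.72 for Mt2 and -0.76 for Mt1) and was -0.06 and -0.07 on the common scale.

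**Figure D4:**
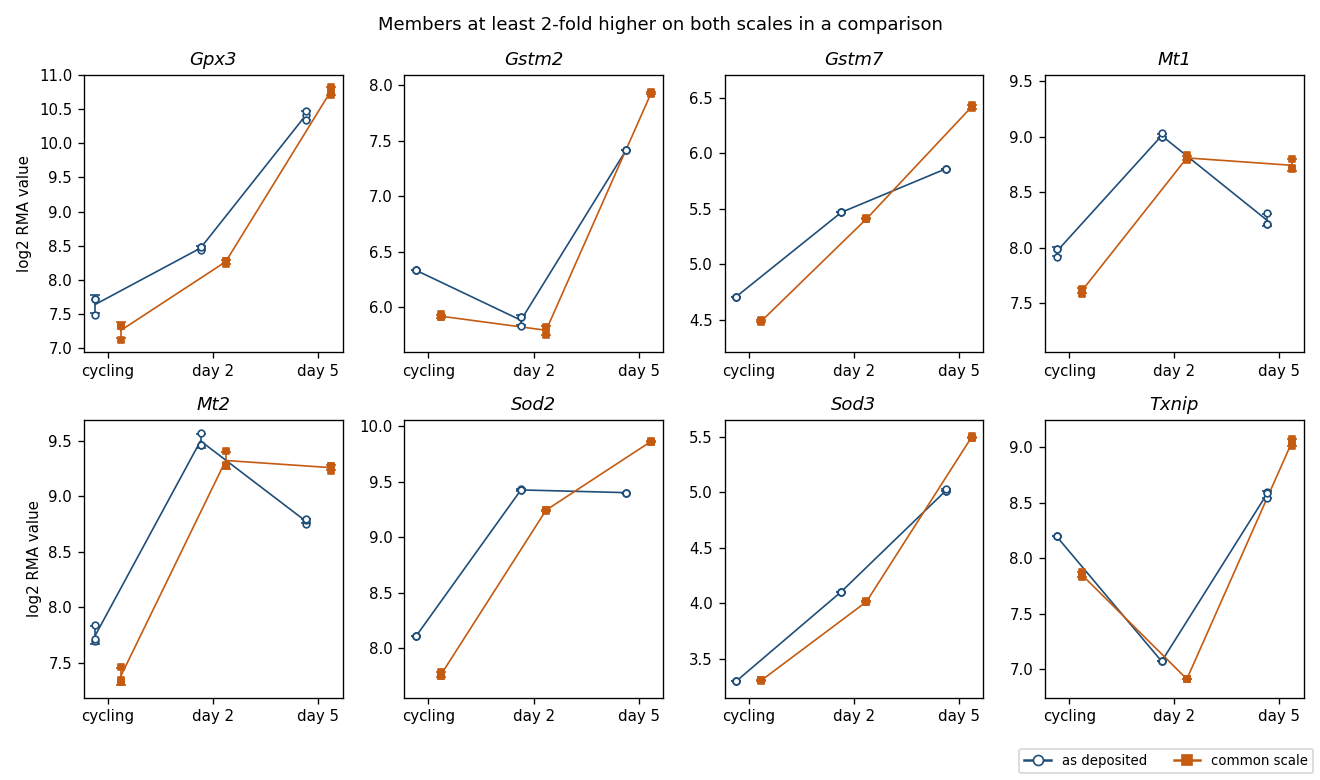
Log2 RMA values of the 8 members that rose in at least 1 comparison, 3 arrays a time point, as deposited (open circles, blue) and on the common scale (squares, orange); lines join the means, bars are SDs over 3 arrays, and each panel has its own axis. Sod2, Mt1 and Mt2 had risen by day 2, Gpx3, Gstm2 and Txnip rose between day 2 and day 5, and the changes of Sod3 and Gstm7 passed only for day 5 against cycling myoblasts.

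The glutathione transferases, which couple glutathione to reactive compounds, showed no common direction, with 18 of 19 tested. At day 2 none rose and 2 fell (11.1%, against 8.41% of all genes tested). At day 5, 2 rose (11.1%, against 4.44%) and 1 fell (5.56%, against 12.3%). Gsta4, which clears the lipid peroxidation product 4-hydroxynonenal, measured 9.95, 9.89 and 10.02 in cycling myoblasts, 7.92 on each array at day 2 and 8.07, 8.07 and 8.01 at day 5. It fell 4.10-fold and 3.71-fold at day 2 (adjusted p = 1.10e-09) and 3.74-fold and 2.13-fold at day 5. Gstk1, the kappa-class enzyme of mitochondria and peroxisomes, measured 4.38 on each cycling array, 3.1 on each array at day 2 and 3.27, 3.37 and 3.37 at day 5. It fell 2.43-fold and 2.40-fold at day 2 (adjusted p = 3.24e-09), to a value at or below the filter, so the size of that fall is not known exactly.

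The mu-class genes lie side by side on chromosome 3, in the order Gstm5, Gstm7, Gstm6, Gstm3, Gstm2, Gstm1 and Gstm4, yet moved differently. Gstm2 measured 6.33 on each cycling array, 5.91, 5.91 and 5.83 at day 2 and 7.41 on each array at day 5. It was high at day 5 alone, where it rose 2.11-fold and 4.03-fold against cycling myoblasts and 2.89-fold and 4.40-fold against day 2 (adjusted p = 2.51e-10). Gstm7 measured 4.71 on each cycling array, 5.47 on each array at day 2 and 5.86 on each array at day 5. Its groups did not overlap, and at day 5 against cycling myoblasts it had risen 2.23-fold and 3.81-fold (adjusted p = 7.01e-14). Gstm1 was lowest at day 2, with means of 7.85, 6.85 and 7.75, and its changes from day 2 to day 5 were 0.90 and 1.55. Gstm5 stayed at 7.25, 7.28 and 7.27 as deposited. Gstm3 changed by -0.25 and 0.06 at day 2, and its second probe set by -0.56 and -0.49, so its direction is uncertain. Mu-class transcripts are alike in sequence, so how far their probes share signal was not tested. In the pi class Gstp1 went from 10.44 to 9.75 and 9.82 as deposited, and in the omega class Gsto1 and Gsto2 changed at day 5 by 0.22 and 1.03 and by 0.35 and 1.17. The theta-class genes Gstt1, Gstt2, Gstt3 and Gstt4 lay at or below the array median at each time.

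Of the 11 tested genes named for a thioredoxin domain or likeness, 1 fell at both times (9.09%). Of all genes tested, 8.41% fell at day 2 and 12.3% at day 5. Txndc5, a protein disulfide isomerase of the endoplasmic reticulum, measured 9.19, 9.46 and 9.46 in cycling myoblasts, 7.93, 7.93 and 7.92 at day 2 and 7.24 on each array at day 5. It fell 2.72-fold and 2.5-fold at day 2 (adjusted p = 1.04e-06) and 4.38-fold and 2.51-fold at day 5. Txndc12, another protein of that compartment, changed by -1.10 and -0.84 at day 2 and by -1.82 and -0.88 at day 5, below 2-fold on the common scale. Txndc15 changed by 0.64 and 0.89 at day 2, and Txndc17, a cytosolic protein, by 0.17 and 0.29. Txnl1, which binds the proteasome, changed by -0.42 and -0.34 at day 2 and by -1.32 and -0.54 at day 5. Txnl4a, a spliceosome component, had opposite signs at day 5 (-0.83 and 0.02).

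Genes around these pathways were read from lists that hold no member. Their shares are set beside those of all genes tested, of which 8.41% fell and 6.04% rose at day 2 and 12.3% fell and 4.44% rose at day 5. Of 13 genes that supply NADPH, 3 fell (23.1%) and 2 rose (15.4%) at day 2, and 2 fell and 2 rose (15.4% each) at day 5. Pgd, of the pentose phosphate pathway, changed by -1.16 and -1.04 at day 2 and Mthfd1, of folate metabolism, by -1.72 and -1.58, while mitochondrial Aldh1l2 changed by 1.79 and 1.84. Me1, the cytosolic malic enzyme, changed by -1.52 and -1.41 at day 2 and by -1.67 and -0.88 at day 5. Me3, a mitochondrial malic enzyme, changed by 0.14 and 0.25 at day 2 and by 2.10 and 2.83 at day 5. Of the isocitrate dehydrogenases in this list, neither cytosolic Idh1 (-0.27 and -0.16 at day 2) nor mitochondrial Idh2 (-0.48 and -0.38) passed. Of 26 other glutathione genes, 4 fell (15.4%) and 2 rose (7.69%) at day 2, and 4 fell (15.4%) and 3 rose (11.5%) at day 5. Abcc1, which exports glutathione conjugates, changed by -1.48 and -1.27 at day 2 and by -2.51 and -1.63 at day 5. Mgst3, a microsomal transferase, changed by 1.95 and 2.07 at day 2, and Mgst2 by -1.75 and -1.41. Esd, an esterase gene, changed by -1.82 and -1.68 at day 2 and by -1.84 and -1.02 at day 5. Cth, which makes cysteine, changed by -2.04 and -1.68 at day 2 and by 1.56 and 2.18 from day 2 to day 5. Of 21 NRF2 partners and further targets 3 fell (14.3%) and none rose at day 2, and 2 fell (9.52%) and 1 rose (4.76%) at day 5, the latter shares near or below those of all genes. Ugdh, which makes UDP-glucuronic acid, changed by -2.86 and -2.71 at day 2, Aox1 by -2.01 and -1.68 and Cbr3 by -1.86 and -1.48, whereas Nfe2l1, a relative of Nfe2l2, changed by 1.00 and 1.78 at day 5.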

How the data were processed

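Expression was measured on 9 arrays, 3 for each of 3 time points. The deposited log2 values were made by the authors with RMA, per the submitters' processing notes, and the design text says that each replicate set was normalized separately; no version is given in the sources used here. The array number limits the precision. By the platform annotation 21789 probe sets name 1 gene, 1621 several and 12146 none; 6 probe sets that name a member with other genes were left out. All 66 members matched the RefSeq table (GRCm38.p6) by Entrez ID. Where each probe set itself maps on the genome was not checked. Genes were tested if above the 30th percentile of the array on at least 3 arrays, with lmFit and eBayes in limma 3.58.1 (R 4.3.3), 1 mean per time point. The code was tried on simulated data with independent noise on every value. Those data had no identical values and no separate normalization by group, so the trial says nothing about the p-values here.

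Array values are given for members that changed at least 2-fold on both scales, for those with the largest SD and for 17 listed members. Genes from other lists are those called in a comparison, at most 5 a list by size of change, with Sesn3 added. Idh1 and Idh2, which were not called, are also given. The members and lists were chosen with earlier results of these data known. Alternatives were each scale alone, median centring, no filter, trend and robust eBayes, the mean of a gene's probe sets, the replicate number as a block and leaving out each array. Correlations of same-numbered arrays' deviations from their group means (-0.0382 to 0.106) lay within the range of other pairs (-0.151 to 0.163). No pairing by number was seen, but this check cannot exclude it, as each time point was normalized separately. Of the called members, Gclc, Gsta4, Hmox1 and Sod3 had no promoter sequence here.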

Additional observations from a re-analysis of the deposited data

How the results depend on the processing

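The choice of scale moved the counts most. On the common scale alone 6 members rose at day 2 and 13 at day 5 against cycling myoblasts, and 7 from day 2 to day 5. As deposited alone 20 members fell at day 5 against cycling myoblasts and 8 from day 2 to day 5. With median centring as the common scale 12 fell at day 2 (Txndc12 and Txnip added), 12 at day 5 (Gsr, Srxn1 and Txndc12 added) and 2 from day 2 to day 5 (Gpx7 added). Leaving out each array in turn gave 1 to 2 falls from day 2 to day 5 (2 without day 2 replicate 2, again with Gpx7), 3 to 4 rises and 10 to 11 falls at day 2, and 5 to 6 rises and 9 falls at day 5. Of the 62 tested members, 7 had opposite signs on the 2 scales at day 2 and 17 at day 5. From day 2 to day 5, 25 did. Of all 16582 genes tested, 2032, 4503 and 5923 had opposite signs. The 30 members with array values, which include the 19 called on both scales, have 90 log2FC. Of these, 12 changed sign on the common scale alone, 5 with median centring and 1 without 1 array. On the common scale Cat (0.32) and Keap1 (0.47) did so at day 5 against cycling myoblasts, and from day 2 to day 5 Cat (0.63), Gpx1 (0.00037), Gsr (0.019), Keap1 (0.57), Nfe2l2 (0.30), Prdx1 (0.022), Prdx3 (0.31), Sod1 (0.046), Sod2 (0.62) and Txn1 (0.20). With median centring Cat (0.21), Keap1 (0.14), Prdx3 (0.052), Sod2 (0.25) and Txn1 (0.020) did so from day 2 to day 5. Leaving out each array gave Gpx4 from day 2 to day 5 a range of -0.00282 to 0.0685. No filter, the trend and robust settings and the mean of probe sets kept the sign and the side of the threshold of all 90. With the replicate block, 3 rose and 10 fell at day 2, 6 and 9 at day 5, and 3 and 1 from day 2 to day 5, with no call changed. The cause of the dependence on scale was not tested. A measure of background was not used here, so falls to low values have no exact size.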

Other observations

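Of 20 genes of metal and iron handling, 4 fell (20%, against 8.41% of all genes tested) and 2 rose (10%, against 6.04%) at day 2. At day 5, 2 fell (10%, against 12.3%) and 1 rose (5%, against 4.44%). Ftl1, the ferritin light chain, changed by -1.68 and -1.70 as deposited and on the common scale, and Slc39a10, a zinc importer, by -1.58 and -1.37. Slc40a1, the iron exporter ferroportin, changed by 1.59 and 1.55 at day 2 and by 2.64 and 3.21 at day 5. Tfrc, the transferrin receptor, changed by 1.25 and 1.44 at day 2. Blvrb, a biliverdin reductase, changed by -1.71 and -1.44 at day 2.

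A further list held methionine sulfoxide repair, sestrin, selenoprotein and a few other stress genes (Park7, Oxr1 and the uncoupling proteins). Of its 22 tested genes, 4 rose (18.2%, against 6.04% of all genes tested) and 1 fell (4.55%, against 8.41%) at day 2. At day 5, 5 rose (22.7%, against 4.44%) and 2 fell (9.09%, against 12.3%). Sesn1 changed by 1.86 and 2.07 at day 2, Selenop, the secreted selenium carrier, by 1.82 and 1.79, and Ucp3, an uncoupling protein of muscle mitochondria, by 1.71 and 1.66. Selenon, a selenoprotein gene, went the other way, with -2.37 and -1.58 at day 5. Sesn3, another sestrin gene, also fell, by -1.30 and -1.03 at day 2 and by -2.08 and -1.16 at day 5. Msrb1, which repairs oxidised methionine, changed by 1.45 and 2.33 at day 5. Of 11 tested sources of superoxide and peroxide, 1 fell at day 2 (9.09%, near the 8.41% of all genes), Maoa with -1.70 and -1.33. At day 5, 1 rose (9.09%, against 4.44%), Maob with 1.48 and 2.04. Both encode monoamine oxidases of the outer mitochondrial membrane.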
